A study of Mus musculus with 4 samples.

Results

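The nuclear-encoded subunits of oxidative phosphorylation were examined in sorted skin cells, labelled as melanocytic, from mice that carried oncogenic Nras with or without a mutant Ezh2. The members were the protein-coding genes whose GENCODE M21 symbol begins with Nduf, Uqcr or Atp5, together with Sdha, Sdhb, Sdhc, Sdhd, Cycs and Cyc1. There were 77 of them among the 22524 genes with counts, on 19 chromosomes. By role, 7 were core and 29 accessory subunits of complex I and 8 were its Ndufaf assembly factors. Another 4 belonged to complex II, 9 to complex III, 5 to the F1 part and 11 to the Fo and stalk parts of ATP synthase, and 1 was cytochrome c. The remaining 3, Ndufa4, Ndufa4l2 and Atp5s, carry a family name but are not subunits of the complex they are named for or were not assigned to one. Nuclear subunits of complex IV, the Cox genes, are outside the symbol rule and were read as a separate list.

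All mice carried Tyr::NrasQ61K, Tyr::CreERT2 and R26R-LSL-tdTomato, and the mice of the group Ezh2Y646N carried the ColA1-LSL-Ezh2Y646N allele as well. Tamoxifen activated the Cre recombinase, which acts where the tyrosinase (Tyr) promoter is active, and so switched on the tdTomato label in pre-tumorigenic dermal hyperplasia. The labelled cells were then collected by fluorescence-activated sorting. There were 2 libraries in the group Ezh2Y646N and 2 in the group NrasQ61K, and the labels give neither ages nor whether the libraries came from separate animals. P-values therefore measure only the spread between these libraries, which may be technical.

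Oxidative phosphorylation is carried out in the inner mitochondrial membrane. Complex I takes electrons from NADH and complex II takes them from succinate, both pass them to ubiquinone, and complex III hands them on to cytochrome c, from which complex IV reduces oxygen. Complexes I, III and IV pump protons, and ATP synthase, or complex V, uses the returning protons to make ATP. Most subunits are encoded in the nucleus and a few in mitochondrial DNA, so each complex other than complex II needs both genomes. In the melanocyte lineage the coactivator Ppargc1a, which can be induced by the melanocyte factor Mitf, is known to raise genes of this system. Nuclear factors known to act on their promoters include NRF1, ETS family factors such as GABP, and YY1.

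Library totals were 14808801 to 20600297 counts, and the biological coefficient of variation was 27.9%. Across all genes, 157 were higher and 96 lower in the group Ezh2Y646N at an adjusted p under 0.05 in edgeR's quasi-likelihood test, of 14265 tested. The melanocyte list fixed for the check of identity (10 genes, among them Dct, Tyr, Mitf and Sox10) summed to 3880 and 3970 CPM, counts scaled to a fixed library total, in the group Ezh2Y646N and to 2656 and 3457 CPM in the group NrasQ61K, with none of the 10 past the threshold. Keratinocyte markers were present at higher sums in every library. The 7 basal keratinocyte markers, among them Krt5 and Krt14, summed to 13362 and 20615 CPM in Ezh2Y646N and to 10123 and 23950 CPM in NrasQ61K, and the suprabasal markers to 3399 CPM or more. In bulk RNA such as this, fewer cells of a type and less RNA per cell cannot be told apart. For Ezh2 RNA the fitted log2 fold change was -0.12 (SE 0.39) with an adjusted p of 0.944 in edgeR. It turned to 0.59 without NrasQ61K replicate 1 and to 0.13 without Ezh2Y646N replicate 2. Counts per gene do not separate mutant from endogenous Ezh2 or Nras RNA, so they do not check the labels.

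The promoters of several members are shown first, because several hold elements known from the promoters of mitochondrial genes. The windows run from 150 bases before the annotated start to the base before it, 5′ to 3′ on the gene's strand, and come from RefSeq on GRCm38.p6. Capitals mark matches, on either strand, to GCGCANGCG (the NRF1 motif), CCGGAAG (ETS), AAGATGGCG (YY1) and CCAAT. Adjacent or overlapping matches run together, as in the CCAATTGG of Atp5g1. Sdha (chr13:74350241-74350390, minus strand) and Sdhd (chr9:50603850-50603999, minus strand) are from complex II. Atp5g1 (chr11:96075632-96075781, minus strand), Atp5g2 (chr15:102671048-102671197, minus strand) and Atp5g3 (chr2:73911327-73911476, minus strand) are separate genes for the c subunit of ATP synthase. Ndufv3 (chr17:31519965-31520114, plus strand) is the complex I subunit with the largest fold change, and Cycs (chr6:50566570-50566719, minus strand) encodes cytochrome c.
Sdha: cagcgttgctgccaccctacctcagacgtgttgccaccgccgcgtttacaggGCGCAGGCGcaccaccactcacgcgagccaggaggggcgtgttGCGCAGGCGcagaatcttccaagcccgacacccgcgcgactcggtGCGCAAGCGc
Sdhd: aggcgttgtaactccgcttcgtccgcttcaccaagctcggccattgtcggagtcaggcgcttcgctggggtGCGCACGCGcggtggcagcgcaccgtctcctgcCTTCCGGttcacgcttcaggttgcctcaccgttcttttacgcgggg
Atp5g1: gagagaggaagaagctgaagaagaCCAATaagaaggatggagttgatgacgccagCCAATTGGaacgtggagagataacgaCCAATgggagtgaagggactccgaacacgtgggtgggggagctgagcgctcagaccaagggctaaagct
Atp5g2: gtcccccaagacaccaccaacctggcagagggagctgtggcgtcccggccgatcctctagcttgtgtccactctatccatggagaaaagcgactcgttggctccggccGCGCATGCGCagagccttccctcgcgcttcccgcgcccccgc
Atp5g3: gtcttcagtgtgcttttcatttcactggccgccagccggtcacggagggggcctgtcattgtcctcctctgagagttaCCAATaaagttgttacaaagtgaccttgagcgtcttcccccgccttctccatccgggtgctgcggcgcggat
Ndufv3: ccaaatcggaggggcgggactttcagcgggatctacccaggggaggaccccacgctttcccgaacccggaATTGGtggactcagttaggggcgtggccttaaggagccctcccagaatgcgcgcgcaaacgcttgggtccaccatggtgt
Cycs: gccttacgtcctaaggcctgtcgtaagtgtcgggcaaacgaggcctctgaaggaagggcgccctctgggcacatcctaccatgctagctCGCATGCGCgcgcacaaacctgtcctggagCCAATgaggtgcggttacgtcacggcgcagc

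Promoters were found for 60 of the 77 members and for 15923 protein-coding genes in all. They were searched from 250 bases before to 50 after the start. A single entry was used per gene, the one nearest the GENCODE start and within 500 bases of it. The NRF1 motif was in 21 of the 60 (35%), against 9.29% of all promoters. This motif was shortened to 9 letters after counts of a longer form were seen. The ETS motif was in 14 (23.3%, against 12.6%) and the YY1 motif in 6 (10%, against 2.12%). CCAAT was in 25 (41.7%), against 38.6% of all promoters. The 15923 genes were not matched to the members for expression or base composition. At least one of the first 3 motifs was in 34 of the 60, and NRF1 and ETS were together in 5, among them Sdhd above. Sdha held 3 NRF1 matches in the printed window. The genes of the c subunit differed from each other, with CCAAT boxes but no NRF1 match in Atp5g1 and an NRF1 match in Atp5g2. Atp5g3 held a single CCAAT in its printed part and also an NRF1 match, 13 bases after the start and so not printed. The median log2 fold change was 0.05 over the 21 members with an NRF1 match and 0.04 over the 39 without one. For ETS it was -0.09 over the 14 with a match and 0.06 over the 46 without. For YY1 it was 0.11 over the 6 with a match and 0.04 over the 54 without. These differences were not tested. A match is a description of the letters, and no binding was measured.

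The comparison of the groups asks which RNAs differ when mutant Ezh2 is added to NrasQ61K, and no member passed the threshold in it. In edgeR's quasi-likelihood test 0 of 77 members were past it in either direction, beside 1.77% of all genes tested (1.10% higher, 0.673% lower), and DESeq2 and limma voom also gave 0 (6.35% and 1.50% of all genes). All 77 members passed the filter on low counts, so none was left out. One member, Uqcrb, had an unadjusted p under 0.05, which is 1.30% of the members beside 14.3% of all genes. Log2 fold changes, given throughout as Ezh2Y646N over NrasQ61K, were above 0 for 42 members (beside 46.0% of all genes) and below 0 for 35. Their median was 0.04, beside -0.04 for all genes, and they ran from -0.68 for Ndufaf6 to 0.81 for Ndufa4l2.

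The members' changes were also narrow in size. The median absolute log2 fold change was 0.16, beside 0.30 for all genes, and the median distance between the 2 libraries of a group was 0.20 and 0.23 on the log2 scale for members, beside 0.29 and 0.37 for all genes. For 65 of the 77 members (84.4%) the 95% interval of the fold change lay within 1 of 0 on the log2 scale, that is, a change below 2-fold either way, beside 46.8% of all genes. Both libraries of the group Ezh2Y646N lay above both of the group NrasQ61K for 21 members (27.3%, beside 21.1% of all genes) and below them for 8 (10.4%, beside 23.1%). The other 48 members overlapped between the groups, and in either direction 44.2% of all genes did not. The members' spread was not compared with that of other genes at matched counts.

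**Figure D1:**
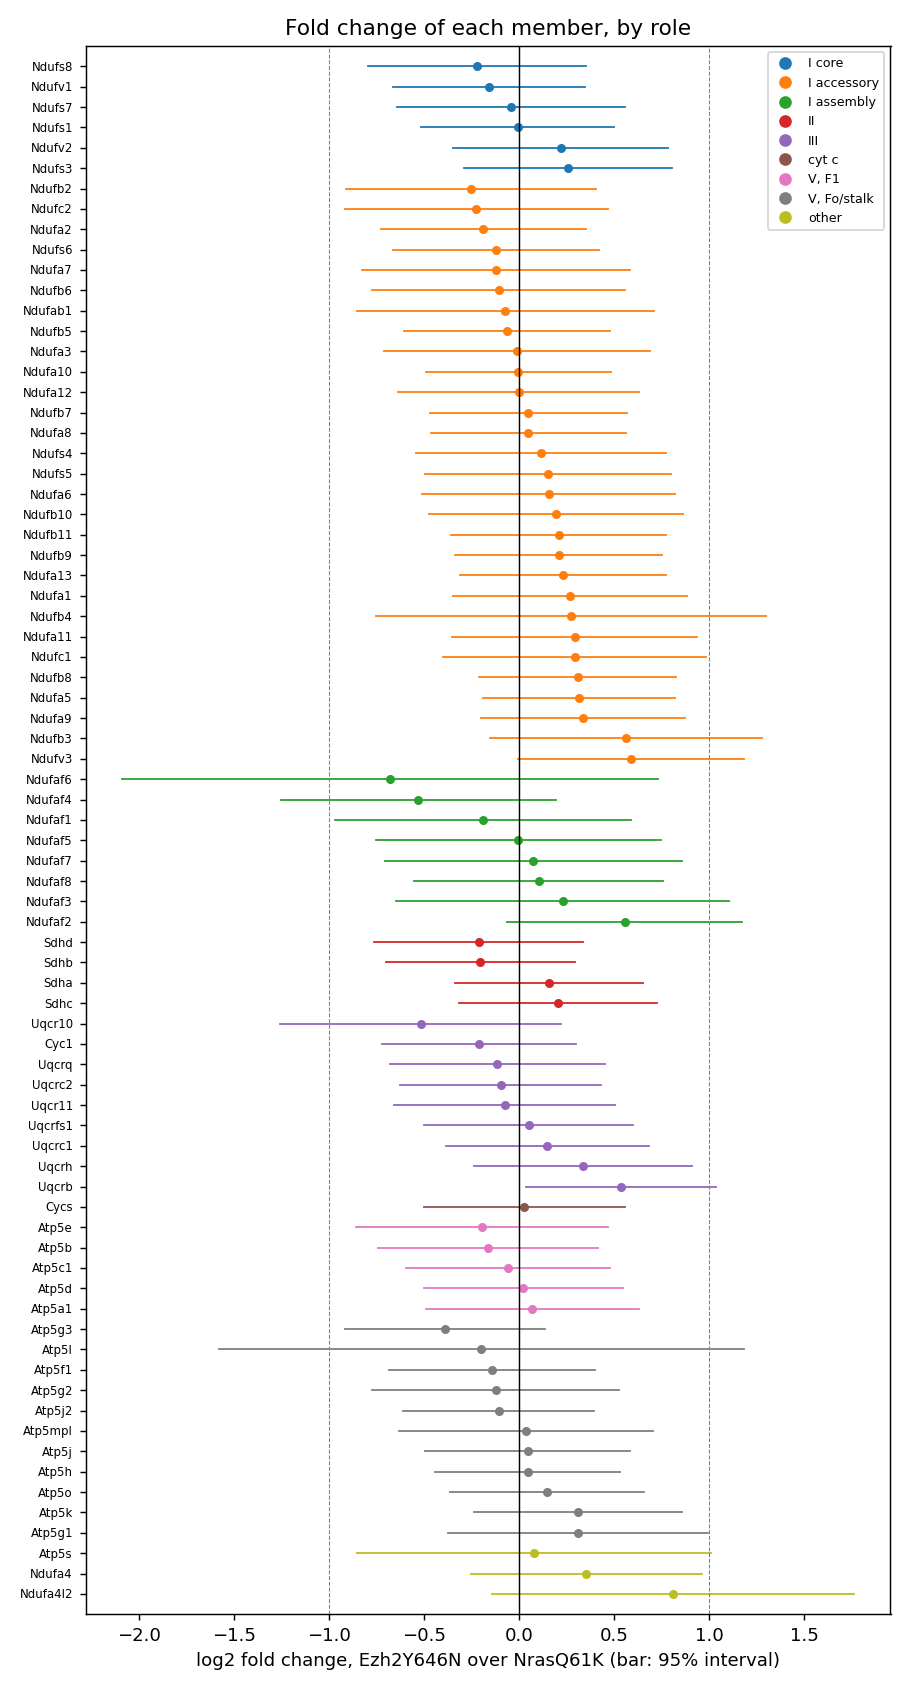
Log2 fold change of 76 of the 77 members (Ezh2Y646N over NrasQ61K) grouped by role, with its 95% interval from edgeR's quasi-likelihood fit. Points lie between -0.68 and 0.81, and every interval but that of Uqcrb includes 0.

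Complex I had slightly more subunits above 0 than below, most of them accessory. Of its 36 subunits 20 had fold changes above 0 and 16 below, with a median of 0.08 on the log2 scale. The groups did not overlap for 12 subunits higher in Ezh2Y646N (33.3%) and 2 lower (5.56%), beside 21.1% and 23.1% of all genes tested. The accessory subunits, which surround the catalytic core, had 18 of 29 above 0 and a median of 0.15. The 7 core subunits, which bind NADH and flavin, hold the iron-sulphur clusters or form the quinone site, had 2 above 0 and 5 below with a median of -0.01. None of the 36 was past the threshold, and the median of complex I was -0.001 without Ezh2Y646N replicate 1 and 0.25 without NrasQ61K replicate 2. The difference between accessory and core subunits was not tested.

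Ndufv3 (chromosome 17, 31520115 to 31531331, plus strand), an accessory subunit of the NADH-oxidising arm, led the complex I subunits. It was at 72.2 and 86.6 CPM in Ezh2Y646N and at 43.9 and 61.7 CPM in NrasQ61K. Both Ezh2Y646N libraries were above both NrasQ61K libraries, the lowest being NrasQ61K replicate 1. The log2 fold change was 0.59 (SE 0.26), with edgeR's unadjusted p at 0.052 and its adjusted p at 0.356. Ndufb3 (chromosome 1, 58586384 to 58595964), an accessory subunit of the membrane arm, was at 25.5 and 16.6 CPM against 14.0 and 14.6 CPM. Here Ezh2Y646N replicate 1 stood above the other 3 libraries, and the log2 fold change of 0.56 (SE 0.31) was 0.22 without it. Ndufa9, which stabilises the join between the arms, was at 56.4 and 66.9 against 45.1 and 52.7 CPM, a log2 fold change of 0.34 (SE 0.23).

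The accessory subunits with the highest level per length, Ndufb10 and Ndufb9, differed little between groups. Ndufb10 was at 87.8 and 125 CPM against 73.9 and 112 CPM, so that the second library was the higher in both groups and the groups overlapped. Its log2 fold change was 0.19, and it was -0.09 without Ezh2Y646N replicate 2 and -0.08 without NrasQ61K replicate 1. Ndufb9 was at 91.4 and 81.7 CPM against 65.2 and 84.6 CPM, a log2 fold change of 0.21.

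Core subunits had log2 fold changes from -0.22 to 0.26. Ndufs3, which lies between the NADH and quinone modules, was at 30.1 and 33.0 CPM in Ezh2Y646N and at 26.3 and 26.5 CPM in NrasQ61K, without overlap and with a log2 fold change of 0.26 (SE 0.24). Ndufs8, an iron-sulphur subunit, was at 42.0 and 31.8 against 44.9 and 41.3 CPM, a log2 fold change of -0.22. Ndufv2, the partner of the NADH-binding subunit, was at 108 and 78.0 against 76.5 and 83.7 CPM. Ezh2Y646N replicate 1 stood above the other 3 libraries, and without it the log2 fold change moved from 0.22 to -0.04.

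The assembly factors of complex I, which build the enzyme without staying in it, were evenly divided, 4 above 0 and 4 below. They had the lowest median level per length of the role groups, and 4 of their 8 intervals lay within 1 of 0 on the log2 scale. Ndufaf2, a chaperone of late assembly, was at 23.3 and 23.0 CPM in Ezh2Y646N and 17.3 and 14.3 CPM in NrasQ61K. The groups did not overlap, the log2 fold change was 0.55 (SE 0.27), and edgeR's adjusted p was 0.419. Ndufaf4 was at 14.5 and 15.3 CPM against 26.3 and 16.7 CPM, a log2 fold change of -0.53 (SE 0.31) that was -0.17 without NrasQ61K replicate 1, the one high library. Ndufaf6 had the lowest fold change of all members, -0.68 (SE 0.61), at 3.79 and 1.93 against 6.51 and 2.73 CPM. In both groups replicate 1 was the higher, the groups overlapped, and without NrasQ61K replicate 1 the value was 0.07. Ndufaf8 and Ndufaf1 had log2 fold changes of 0.10 and -0.19, each turning sign without one of the Ezh2Y646N libraries, to -0.04 without replicate 1 and to 0.06 without replicate 2.

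Complex II, succinate dehydrogenase, is the one complex encoded wholly in the nucleus and is also an enzyme of the tricarboxylic acid cycle. Its 4 genes did not overlap between the groups, 2 in each direction, beside 44.2% of all genes tested that did not overlap in either direction. Sdha (chromosome 13, 74322254 to 74350280, minus strand), the flavoprotein that oxidises succinate, was at 211 and 209 CPM in Ezh2Y646N and at 180 and 197 CPM in NrasQ61K. Sdhc, a membrane anchor, was likewise higher in both Ezh2Y646N libraries, at 72.0 and 68.1 against 55.2 and 66.6 CPM. Sdhb, the iron-sulphur subunit, was lower in both, at 54.8 and 52.8 against 61.7 and 62.4 CPM. The other anchor, Sdhd, was at 33.7 and 28.9 against 34.6 and 38.0 CPM, also lower in both. Log2 fold changes were 0.16 (SE 0.21) for Sdha, 0.20 (SE 0.22) for Sdhc, -0.20 (SE 0.21) for Sdhb and -0.21 (SE 0.24) for Sdhd, each smaller than its standard error. All 4 intervals lay within 1 of 0, and the 4 signs held without each library in turn, although the median, -0.02, turned to 0.08 without NrasQ61K replicate 2 and to 0.02 without Ezh2Y646N replicate 2.

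Complex III, ubiquinol-cytochrome c reductase, held the member with the smallest p. Uqcrb (chromosome 13, 66900617 to 66905378, minus strand), a small subunit near the ubiquinone pocket, was at 157 and 162 CPM in Ezh2Y646N and at 100 and 120 CPM in NrasQ61K. The groups did not overlap, with means of 159 ± 3.58 CPM and 110 ± 13.8 CPM (SD over the 2 libraries of each). The log2 fold change was 0.54 (SE 0.22, 95% interval 0.03 to 1.04), with edgeR's unadjusted p at 0.039 and its adjusted p at 0.310. Its level is uncertain, because 43.4% of the 50-base windows of its transcript occur in other genes too. Uqcrh, the hinge subunit, was at 98.7 and 142 against 92.3 and 98.4 CPM, a log2 fold change of 0.34 that was 0.05 without Ezh2Y646N replicate 2, the highest library. Uqcr10, another small subunit, leaned the other way, at 23.8 and 16.1 against 22.9 and 34.2 CPM. One library stood out on each side and the groups overlapped, and the log2 fold change of -0.52 (SE 0.32) was -0.16 without NrasQ61K replicate 2. Over the 9 members 4 were above 0 and 5 below, with a median of -0.08 that was 0.23 without NrasQ61K replicate 2, 0.01 without Ezh2Y646N replicate 2 and -0.21 without NrasQ61K replicate 1.

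Cytochrome c itself was level. Cycs, the mobile carrier between complexes III and IV, was at 81.0 and 65.8 CPM in Ezh2Y646N and at 76.0 and 68.1 CPM in NrasQ61K, a log2 fold change of 0.03 (SE 0.23). The NrasQ61K values lay inside the Ezh2Y646N range. The sign is not settled, since the value was -0.09 with library totals in place of TMM scaling and -0.13 without Ezh2Y646N replicate 1 or -0.0087 without NrasQ61K replicate 2.

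The catalytic F1 part of ATP synthase showed no separation between the groups for any of its 5 subunits. Atp5a1, the alpha subunit, was at 694 and 723 CPM in Ezh2Y646N and 657 and 696 CPM in NrasQ61K, and Atp5b, the beta subunit that makes ATP, was at 609 and 487 against 627 and 601 CPM. Ezh2Y646N replicate 2 was thus the lowest for Atp5b and the highest for Atp5a1. The log2 fold changes were 0.07 (SE 0.24) and -0.16 (SE 0.25), the former -0.05 with library totals. Atp5c1, the gamma subunit of the rotor, was at 185 and 146 against 160 and 185 CPM. Atp5d and Atp5e, the delta and epsilon subunits of the rotor foot, were at 113 and 115 against 98.7 and 126 CPM and at 18.3 and 20.0 against 18.1 and 25.6 CPM. The signs of Atp5c1 (-0.06), Atp5d (0.02) and Atp5e (-0.19) each turned without NrasQ61K replicate 2 or replicate 1, to 0.09, -0.15 and 0.12, and that of Atp5c1 to 0.10 without Ezh2Y646N replicate 2.

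The membrane part of ATP synthase contains a ring of c subunits that 3 genes encode with the same mature protein and different targeting sequences. Their values differed in direction, and that difference was not tested. Atp5g3 (chromosome 2, 73908447 to 73911326) was at 54.9 and 45.6 CPM in Ezh2Y646N and at 63.9 and 68.0 CPM in NrasQ61K, lower in both libraries, with a log2 fold change of -0.39 (SE 0.23), and edgeR's adjusted p was 0.521. Atp5g1 (chromosome 11, 96068852 to 96075670) was at 38.0 and 29.6 against 21.5 and 33.0 CPM, overlapping, with a log2 fold change of 0.31 (SE 0.29), and edgeR's adjusted p was 0.747. Without NrasQ61K replicate 1, its lowest library, the value was 0.03. Atp5g2 was at 15.7 and 13.3 against 15.5 and 16.2 CPM, a log2 fold change of -0.12. Counts of Atp5g1 per count of Atp5g3 were 0.691 and 0.648 in Ezh2Y646N and 0.336 and 0.486 in NrasQ61K, without overlap. This ratio was chosen after its values were seen and was not tested.

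Among the other Fo and stalk subunits, Atp5k, the e subunit, was at 63.2 and 54.5 CPM in Ezh2Y646N and 52.7 and 42.4 CPM in NrasQ61K, a log2 fold change of 0.31 (SE 0.24). Every Ezh2Y646N value was above every NrasQ61K value. Atp5mpl, a small proteolipid of the complex, was at 74.0 and 120 against 82.9 and 106 CPM, and its log2 fold change of 0.04 was -0.36 without Ezh2Y646N replicate 2 and -0.13 without NrasQ61K replicate 1. Over all 16 subunits of ATP synthase 8 were above 0 and 8 below, with a median of -0.02 that was 0.12 without NrasQ61K replicate 2, 0.04 without Ezh2Y646N replicate 1 and -0.14 without NrasQ61K replicate 1.

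Ndufa4l2 (chromosome 10, 127514967 to 127517154, plus strand) had the largest fold change of the 77 members. It is the paralog of Ndufa4 and is known as a target of hypoxia-inducible factor. It was at 80.3 and 92.3 CPM in Ezh2Y646N and at 27.4 and 71.1 CPM in NrasQ61K. The groups did not overlap, and NrasQ61K replicate 1 was far below the other 3 libraries, with a log2 ratio of -1.38 to NrasQ61K replicate 2. The log2 fold change was 0.81 (SE 0.41), and edgeR's adjusted p was 0.448. Without NrasQ61K replicate 2 it was 1.70 with an adjusted p of 0.003 in edgeR, where 7.66% of all genes were past the threshold, and without NrasQ61K replicate 1 it was 0.28. It was the only member past the threshold in any fit that left out a library. In a replicate block fit on all 4 libraries, whose pairing comes from no label, it was 0.96 with edgeR's adjusted p at 0.015, where 9.37% of all genes were past the threshold. Of 9 hypoxia targets fixed as a list, 8 were lower in NrasQ61K replicate 1 than in replicate 2, beside 7186 of all 14265 genes. So were 29 of 32 cytosolic ribosomal protein genes and 16 of 17 glycolysis genes. For mitochondrial ribosome genes the count was 13 of 49, and for tricarboxylic acid cycle genes 6 of 16. The hypoxia list summed to 516 and 631 CPM in Ezh2Y646N and to 425 and 725 CPM in NrasQ61K. In it 5 genes were above 0 and 4 below, with none past the threshold. Vegfa, its gene of smallest p, was lower in both Ezh2Y646N libraries, with a log2 fold change of -0.68 (SE 0.28). The part of hypoxia in the value of Ndufa4l2 was not tested.

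Ndufa4, named for complex I but a subunit of cytochrome c oxidase, was at 24.0 and 26.5 against 17.8 and 21.7 CPM, a log2 fold change of 0.35 (SE 0.26) without overlap. Atp5s, a coupling factor homolog, was at 5.23 and 5.73 against 4.61 and 5.75 CPM, a log2 fold change of 0.08.

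**Figure D2:**
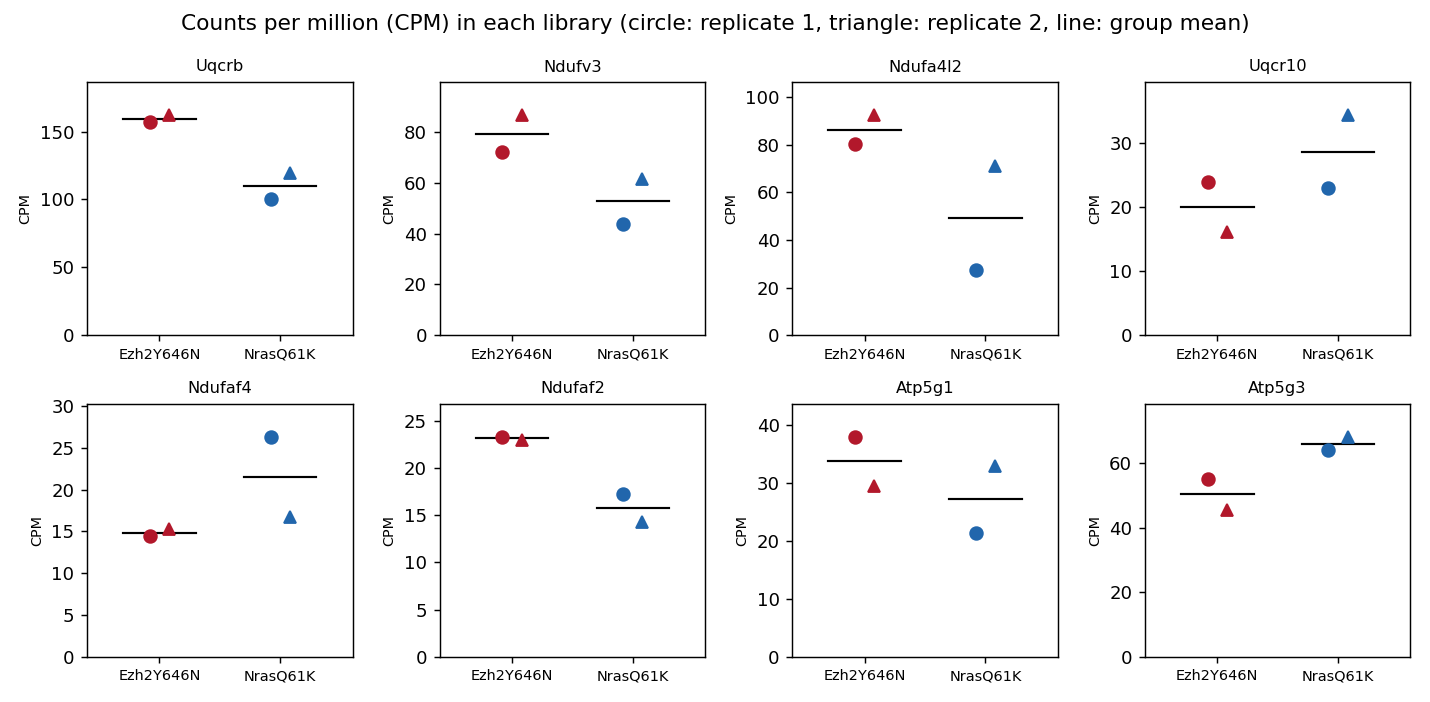
CPM in each of the 4 libraries for 8 members, one panel each, with points for libraries coloured by group. Uqcrb, Ndufv3, Ndufaf2 and Ndufa4l2 are higher in both Ezh2Y646N libraries, Atp5g3 and Ndufaf4 are lower in both, and Uqcr10 and Atp5g1 overlap.

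Members summed by complex took nearly the same share of each library. All 77 together took 0.549% and 0.529% of counts in Ezh2Y646N and 0.547% and 0.575% in NrasQ61K. Complex I took 0.183% and 0.176% against 0.176% and 0.186%, complex II 0.0357% and 0.0345% against 0.0354% and 0.0369%, and complex III 0.0733% and 0.0761% against 0.0684% and 0.0797%. These 3 complexes overlapped between the groups. ATP synthase did not, at 0.229% and 0.215% against 0.242% and 0.246%, lower in both Ezh2Y646N libraries. The exact 2-sided permutation p was 0.333, the smallest that 2 libraries against 2 can give, and 0.833 after adjustment over 10 sets. Ndufa4, Ndufa4l2 and Atp5s together also did not overlap, with the same exact and adjusted p. They took 0.0105% and 0.0120% in Ezh2Y646N against 0.00531% and 0.00998% in NrasQ61K, higher in both Ezh2Y646N libraries. Shares are of raw library totals. With TMM scaling the summed ATP synthase level overlapped, at 2381 and 2242 against 2263 and 2433 CPM. A few abundant genes weigh heavily in the sum. In Ezh2Y646N replicate 1, Atp5a1 and Atp5b supplied 12074 and 10598 of the 41430 raw counts of ATP synthase. By gene, 8 of its 16 log2 fold changes were above 0 and 8 below.

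Mitochondrially encoded genes, which supply the remaining subunits, did not overlap between the groups in their summed share. They took 1.45% and 1.19% of counts in Ezh2Y646N and 1.64% and 1.62% in NrasQ61K (exact 2-sided permutation p = 0.333, the smallest possible, adjusted p = 0.833). Counts of the 77 nuclear members per mitochondrially encoded count were 0.377 and 0.443 in Ezh2Y646N and 0.334 and 0.356 in NrasQ61K, higher in both Ezh2Y646N libraries. In the fit 7 of the 8 tested mitochondrial genes had fold changes below 0, with a median of -0.14 and none past the threshold. The mitochondrial share is also read as a sign of RNA or cell quality, and its part in these ratios was not tested. Several mitochondrial genes, namely mt-Atp6, mt-Atp8, mt-Co2, mt-Co3 and mt-Nd4l, were at or near 0 CPM, so this share rests on the others.

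**Figure D3:**
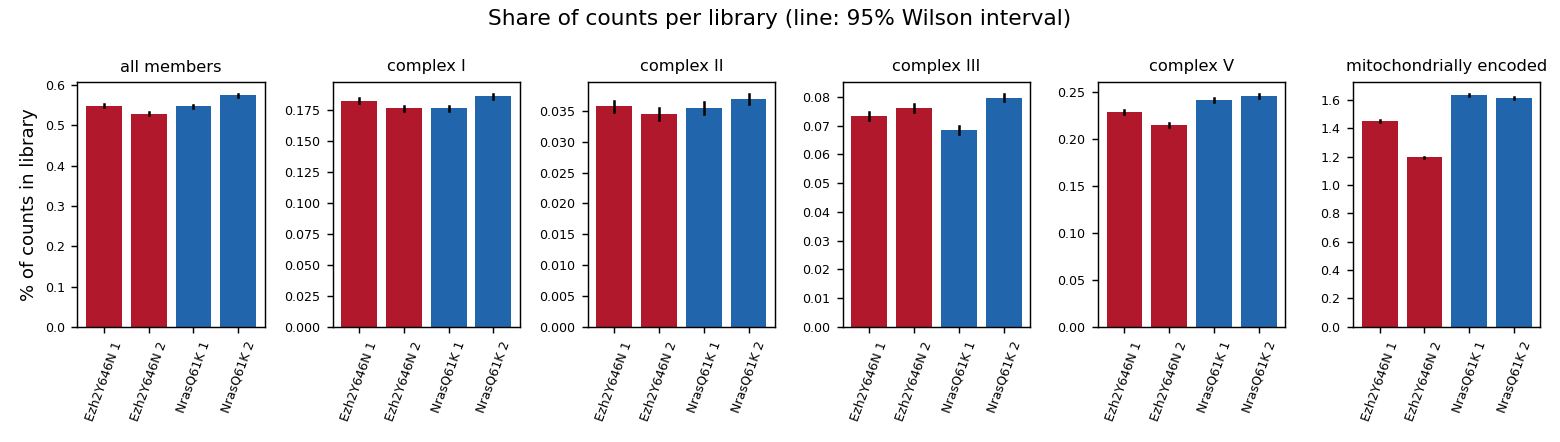
Percent of each library's counts in all members, in complexes I, II, III and V and in mitochondrially encoded genes. Each library has one bar, with a line for its Wilson 95% interval, which covers counting error only. ATP synthase (0.215% to 0.246%) and the mitochondrially encoded genes (1.19% to 1.64%) separate by group, and the other sets drawn overlap.

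Levels differed far more between members than between groups. On the scale of CPM per kilobase of merged exons (RPKM), averaged over the 4 libraries, the median member was at 27.5 RPKM. The highest were Atp5a1 at 221 RPKM, Uqcrb at 154 RPKM and Atp5b at 137 RPKM, the 3 members over 100 RPKM. By role, the median level was 88.4 RPKM for F1, 42.6 for complex III, 31.0 for the core and 26.3 for the accessory subunits of complex I, 27.3 for Fo and the stalk, 26.7 for complex II and 4.86 for the assembly factors. Subunits of one complex were not at equal RNA levels. Within complex II the highest subunit, Sdha, was 2.40-fold above the lowest, Sdhc. Within the accessory subunits of complex I the span from Ndufb4 to Ndufb10 was 38.7-fold, and in the Fo and stalk subunits the span from Atp5l to Atp5k was 193-fold.

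These spans depend on the length and on shared sequence. With the longest coding transcript as the length, the F1 median was still the highest (97.3 RPKM) and that of the assembly factors the lowest (6.39 RPKM), but the Fo and stalk median was 80.4 RPKM. Atp5l, the g subunit, was at 0.448 RPKM with 37 and 47 counts in Ezh2Y646N and 66 and 42 in NrasQ61K, and it was the only member under 1 RPKM. With its longest coding transcript as the length, 544 bases, it was at 5.31 RPKM and 70th of the 77 members rather than last. Of the 50-base windows of that transcript, 84.8% were identical to sequence in transcripts of other genes, 14 in number, 12 of them pseudogenes. The same held for 50.3% of Atp5o, 47.9% of Atp5h, 43.4% of Uqcrb and 37.0% of Ndufb4. In all, 39 members shared at least one such window, 12 of them more than 25% of their windows, and 38 shared none. How reads that fit several places were counted is not given in the sources used here, so levels of such members are uncertain. The median was 23.5 RPKM for the 12 and 29.4 RPKM for the 38. Atp5l, Atp5o, Atp5h and Ndufb4 were chosen for their shared windows after values were seen.

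The first 60 coding bases of 3 such members, in GENCODE M21 transcripts on GRCm38, show how close the copies are. Each is printed in full because the whole stretch is found without a mismatch in transcripts of at least one pseudogene, 2 for Atp5l and 1 each for Ndufb4 and Uqcrb. Capitals are not used, since no part stands apart.
Atp5l: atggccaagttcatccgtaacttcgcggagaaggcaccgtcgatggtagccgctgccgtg
Ndufb4: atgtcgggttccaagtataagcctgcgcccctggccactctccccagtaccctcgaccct
Uqcrb: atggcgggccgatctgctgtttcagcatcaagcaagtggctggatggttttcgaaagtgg

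**Figure D4:**
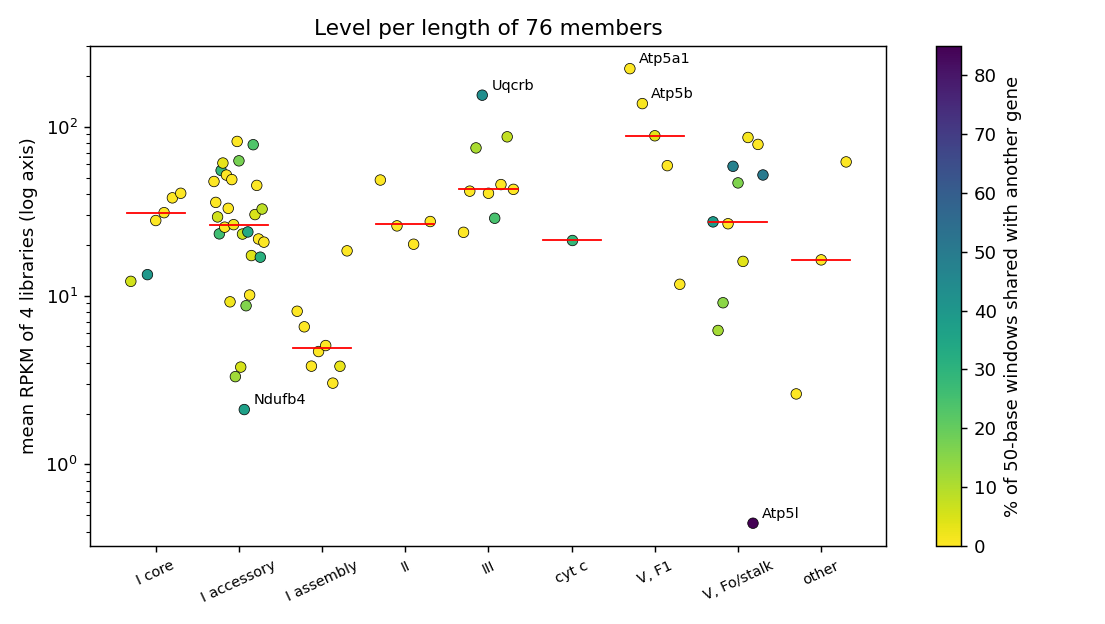
Mean level of 76 of the 77 members in RPKM on a log axis, by role, with the colour giving the percent of its 50-base windows shared with other genes and the red line the median of all members of the role. The F1 subunits have the highest median (88.4 RPKM) and the assembly factors the lowest (4.86 RPKM), and Atp5l lies alone at 0.448 RPKM.

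Genes of the neighbouring pathways were read from 10 fixed lists, and none of their members was past the threshold in edgeR, DESeq2 or limma voom. Nuclear subunits of complex IV had 5 of 12 tested genes above 0 and 7 below, with a median of -0.03. Cox6a2, Cox7a1 and Cox8b, forms known from muscle, and Cox4i2 were near 0 CPM in every library and were not tested. Assembly factors not named Nduf had 22 of 35 above 0 and a median of 0.05, with Acad9, which acts in complex I assembly, at a log2 fold change of 0.43 (SE 0.24). Tricarboxylic acid cycle genes had 6 of 16 above 0 (median -0.11), glycolysis genes 9 of 17 (median 0.01), mitochondrial ribosome genes 21 of 49 (median -0.05), mitochondrial carriers and channels 3 of 15 (median -0.10) and cytosolic ribosomal proteins 20 of 32 (median 0.06).

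The genes nearest the threshold in these lists, Tomm40, Suclg2, Ldhb and Ppargc1a, had adjusted p-values in edgeR below that of Uqcrb. Those of Pprc1, Vdac1 and Hk2 were above it. Ppargc1a, the coactivator of mitochondrial genes, was at 17.6 and 13.6 CPM in Ezh2Y646N and 7.84 and 10.02 CPM in NrasQ61K, higher in both, with a log2 fold change of 0.80 (SE 0.32), and edgeR's adjusted p was 0.305. Its relative Pprc1 was at 68.7 and 75.8 against 139 and 79.0 CPM, a log2 fold change of -0.59 that was -0.13 without NrasQ61K replicate 1. The 12 regulators had 4 above 0 and 8 below. Tomm40, the pore of the outer membrane import machinery, was at 43.4 and 44.7 against 73.2 and 67.3 CPM, a log2 fold change of -0.67 (SE 0.22), and edgeR's adjusted p was 0.193. From the same list as Tomm40, Vdac1 had a log2 fold change of 0.57 (SE 0.27) with an adjusted p of 0.392 in edgeR. Suclg2, a subunit of succinyl-CoA ligase, had a log2 fold change of 0.64 (SE 0.23) with an adjusted p of 0.256 in edgeR. Ldhb, a subunit of lactate dehydrogenase, had one of 0.71 (SE 0.27) with an adjusted p of 0.282 in edgeR, while the hexokinase Hk2 had one of -0.49 (SE 0.24).

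Markers of other cell types differed between the libraries far more than the members did. All 9 tested suprabasal keratinocyte markers were above 0, 4 of them past the threshold, and they summed to 43309 and 30579 CPM in Ezh2Y646N against 3399 and 8911 CPM in NrasQ61K. Fibroblast markers were below 0 for 9 of 9, with 2 past the threshold (824 and 2043 against 4065 and 2409 CPM), as were hair shaft and inner root sheath markers, with 4 of 9 past it (502 and 227 against 2898 and 1521 CPM). Skeletal muscle, a tissue rich in these complexes, had 9 of 10 markers above 0 and none past the threshold, at 61.6 and 94.0 against 46.3 and 62.4 CPM in sum. The 6 adipocyte markers summed to 31.4 and 14.0 against 56.5 and 20.8 CPM, nearly all of it Fabp4, which endothelial cells also express and which was the one marker tested, with a log2 fold change of -0.84 and edgeR's adjusted p at 0.592. Of the other 5, Plin1 reached 1.86 CPM in Ezh2Y646N replicate 2, and Adipoq and Lep were at or near 0 CPM in every library. The part of these cells in the members' values was not tested.

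The members' values depended on single libraries. Of the 77 members 55 were lower in NrasQ61K replicate 1 than in replicate 2, beside 7186 of the 14265 genes tested. Without NrasQ61K replicate 2 the median log2 fold change of the members was 0.17 in place of 0.04, with 54 above 0, and without NrasQ61K replicate 1 it was 0.01 with 39 above 0. Without Ezh2Y646N replicate 1 it was 0.03, and without replicate 2 it was 0.06. With library totals in place of TMM it was -0.07, with 30 above 0. The median of all genes moved from -0.04 to -0.16, so that members lay 0.09 above all genes on both scales. That distance was not stable, at 0.003 without NrasQ61K replicate 1 and 0.15 without NrasQ61K replicate 2. It was 0.09 without Ezh2Y646N replicate 1, 0.11 without Ezh2Y646N replicate 2, and 0.03 with DESeq2 and with no filter. Counts of all genes past the threshold ranged from 49 to 730 higher and from 43 to 393 lower across the 4 leave-outs. The share of all genes past it was 0.630% without Ezh2Y646N replicate 1, 1.47% without replicate 2 and 2.95% without NrasQ61K replicate 1, with 0 members each, and 7.66% without NrasQ61K replicate 2 with 1 member. Members past it were also 0 with RLE size factors (1.52% of all genes), library totals (2.29%), no filter (6.95%), a mean of at least 50 counts (1.81%), non-robust dispersion (1.71%) and the mitochondrial, haemoglobin and small RNA genes removed (1.56%). With the replicate number as a block, 1 member, Ndufa4l2, was past it beside 9.37% of all genes.

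**Figure D5:**
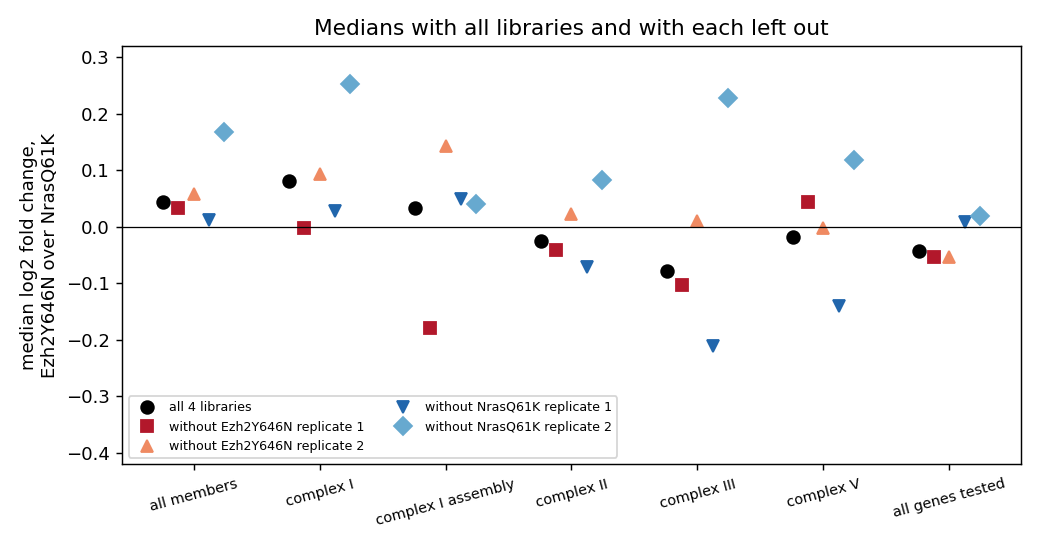
Median log2 fold change of all members and of each complex with all 4 libraries and with each library left out. All members stay between 0.01 and 0.17. The medians of complexes I, II, III and V and of the complex I assembly factors each cross 0 in at least one leave-out.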

How the data were processed

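RNA was measured by sequencing in 4 libraries, 2 per group. The authors deposited raw read counts per Ensembl gene, not normalized, for 22524 genes. Per the labels' protocols, RNA came from a Qiagen micro column kit and libraries from the Clontech pico-input stranded total RNA kit with ribosomal RNA removal. Per the submitters' processing notes, the tools were bcl2fastq 2.19, Trimmomatic, STAR 2.5.4b, featureCounts and edgeR, on GRCm38. Not given in the sources used here are the annotation release, the strand setting and the treatment of reads that fit several genes, so overlapping, antisense and near-identical genes are uncertain.

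Symbols and positions came from GENCODE M21 (22291 identifiers found, 233 not). Of 90 annotated genes with a matching symbol 78 were protein coding, and 77 had counts. The tests used edgeR 4.0.16 under R 4.3.3 (filterByExpr with a minimum of 10 counts and 15 in all, TMM, robust quasi-likelihood, group as the only term, residual degrees of freedom 2). Adjustment was by Benjamini-Hochberg over the 14265 genes tested and the threshold 0.05. The script was tested on simulated data. CPM used TMM-adjusted totals. The standard error (SE) is the absolute log2 fold change divided by the root of F. Promoters came from RefSeq on GRCm38.p6, matched by symbol, and the NRF1 motif was shortened to 9 letters after counts of a longer form were seen.

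Members and lists were chosen with earlier results of these data known. Named members were all those of role groups of up to 5, and otherwise the 3 of smallest p and the 2 of highest RPKM, with the extremes of fold change, any member past the threshold in a fit of all libraries, and paralogs of opposite sign. From each pathway list the rule took the 2 genes of smallest p, and it added Ezh2, Nras and Tyr. Not all of these list genes are described above. Left out were Cox5b, Cox7b, Lyrm7, Cs, Mrpl23, Mrps25, Rplp1 and Rpl37. Members or genes outside this rule were chosen after their values were seen. The alternatives were other scalings, filters and tests (DESeq2 1.42.0, limma 3.58.1), the replicate number as a block, and leaving out each library. One member is not reported by name or drawn by itself, though it remains in the counts and medians.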

Additional observations from a re-analysis of the deposited data

How the results depend on the processing

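No member was past the threshold with RLE size factors, library totals, no filter, a mean of at least 50 counts, DESeq2, limma voom, non-robust dispersion, or removal of mitochondrial, haemoglobin and small RNA genes. The number of all genes past it was 686 higher and 616 lower with no filter, 508 and 381 with DESeq2, and 153 lower with library totals. Library totals also gave a median of -0.14 for complex II, of the same sign as with TMM, and a median of -0.031 for complex I and log2 fold changes of -0.089 for Atp5d, -0.047 for Atp5a1, -0.075 for Atp5mpl, -0.011 for Ndufaf8, -0.090 for Cycs and -0.033 for Atp5s, each of opposite sign to TMM by the change of scale. With the replicate number as a block, 710 genes were higher and 627 lower and 1 member was higher, Ndufa4l2 (0.96, edgeR's adjusted p = 0.015). The labels do not give this pairing, and deviations of same-numbered libraries correlated at 0.108 across genes. Leaving out the 12 members with over 25% shared windows, an alternative chosen after seeing the data, left a median of 0.04 over the other 65 members.

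Leaving out each library in turn gave 49 to 730 genes higher, 43 to 393 lower and 0 to 1 members higher, with medians of -0.0014 to 0.25 for complex I, -0.071 to 0.082 for complex II, -0.21 to 0.23 for complex III and -0.14 to 0.12 for complex V. The median of the complex I assembly factors ran from -0.18 to 0.14. In each such fit a group of 1 library is assumed to vary like the other. Signs turned within these ranges for Atp5c1 (-0.24 to 0.096), Atp5e (-0.42 to 0.12), Atp5d (-0.15 to 0.25), Atp5mpl (-0.36 to 0.34), Ndufb10 (-0.087 to 0.56), Ndufaf6 (-1.25 to 0.070), Ndufaf8 (-0.037 to 0.22), Ndufaf1 (-0.51 to 0.064), Ndufv2 (-0.037 to 0.43), Cycs (-0.13 to 0.16), Atp5s (-0.072 to 0.29), Egln3 (-1.02 to 0.48), Ezh2 (-0.55 to 0.59) and Nras (-0.22 to 0.064). The cause was not tested. Pprc1 and Ldhb, like Ndufa4l2, passed the threshold without NrasQ61K replicate 2, at -0.90 and 1.11 (edgeR's adjusted p = 0.043 and 0.026). Depth limited Atp5l most, with 192 counts over the 4 libraries.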

Other observations

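Some mitochondrially encoded genes of these complexes were listed at or near 0 while others were abundant. mt-Atp6 and mt-Atp8 had 0 counts in all 4 libraries, and mt-Co2, mt-Co3 and mt-Nd4l were at no more than 1.01 CPM in any. In the same libraries mt-Co1 was at 3531 and 3315 CPM in Ezh2Y646N and at 3870 and 4748 CPM in NrasQ61K, and mt-Cytb was at 3915 and 2825 against 4111 and 3657 CPM. Of the 50-base windows of these genes, those also found in transcripts of another gene made up 100% for mt-Co2, 99.9% for mt-Co3, 99.5% for mt-Atp6, 98.8% for mt-Nd4l and 98.0% for mt-Nd3, and 51.1% for mt-Co1. The share was 0% for mt-Cytb, mt-Nd1 and mt-Nd6, which had counts, and 0% for mt-Atp8, which had none. The summed mitochondrial level therefore leaves out, or nearly so, subunits of complexes I, IV and V. Comparisons of it between groups rest on the genes that were counted.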
